A study of Mus musculus with 11 samples.

Results

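Sox genes encode transcription factors that share the high mobility group domain, a fold that binds and bends DNA in its minor groove. The 10 members described here are Sox2, Sox1, Sox3, Sox4, Sox11, Sox12, Sox13, Sox15, Sox17 and Sox21, and a probe counted as a member when the platform annotation gave it one of these symbols. Of 25697 probes on the array, which name 16593 genes, 14 matched, for 9 of the 10 genes, and no probe carried the symbol Sox11, which was not analysed here. A probe was called detected on an array when its detection p-value, the scanner software's comparison with negative control beads, was under 0.01. By that measure 10 probes of 7 genes were detected on at least 2 of the 11 arrays, and 4 probes fell short.

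Sox2, Sox1 and Sox3 form the SoxB1 group. Sox2 is part of the core network of pluripotent cells, where it binds DNA beside the POU factor Oct4 (gene Pou5f1), and all of SoxB1 acts later in the neural plate. Sox21 is a SoxB2 factor that generally represses, Sox4, Sox11 and Sox12 are the SoxC activators of progenitor cells, Sox13 is a SoxD factor, Sox15 is the SoxG factor and is known from embryonic stem cells and muscle precursors, and Sox17 is a SoxF factor required for endoderm.

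Transcripts were measured on 1-colour mouse bead arrays in 6 groups of male stem cells. ESC are embryonic stem cells, the model of the epiblast before implantation. EpiSC are epiblast stem cells (the model of the epiblast after implantation) of the line GOF18, while Epi-Sox2 stands for GOF18 cells with overexpressed wild-type Sox2, cultured in CM (conditioned medium). EpiSC-GFP+ and EpiSC-GFP- are cells of the line E3, also cultured in CM and separated by FACS on a GFP reporter of Oct4. These 5 groups had 2 arrays each, labelled as biological replicates. T9-EpiSC is the line T9, grown on CF1 embryonic fibroblasts at medium density in UM, kept without Fgf2 for 2 days and collected without the fibroblasts, and it had 1 array. Each epiblast group came from 1 named line, so line and condition cannot be told apart between GOF18, E3 and T9, and the labels used here name neither the promoter that drove Sox2 nor the number of clones.

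Signals below are log2 values after background correction and quantile normalisation, and a difference of 1 is a doubling. Between 9250 and 11675 probes were detected per array, the log2 signals of replicate arrays correlated at 0.987 to 0.995 over 13048 probes, and the lowest signal of a detected probe ran from 4.77 on T9-EpiSC to 5.38 on EpiSC-GFP- replicate 2. This floor was higher on the 4 arrays of E3 (5.05 to 5.38) than on the 4 of GOF18 (4.81 to 4.94). The 6 naive markers Zfp42, Esrrb, Klf4, Tbx3, Dppa3 and Nr0b1 were all detected in ESC, 3 of 6 in EpiSC and EpiSC-GFP-, and 5 of 6 in Epi-Sox2 and EpiSC-GFP+. All 5 primed markers (Fgf5, Otx2, Pou3f1, Dnmt3b, Fgf8) were detected on each epiblast stem cell array, and 2 and 3 of them on the ESC arrays. Detection gives no level. Fgf8 read 9.41 and 8.72 in EpiSC and 5.68 and 5.57 in Epi-Sox2, while Dnmt3b read 13.98 and 13.89, and 13.98 and 13.85. These are bulk cultures, in which fewer cells of a type and less RNA per cell cannot be told apart.

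Promoters of 4 members are shown because these genes separated groups in the data and because octamer letters, the sequence bound by Oct4 and other POU factors, stood in those of Sox2 and Sox12. Each is the 250 bases before the RefSeq transcription start in build GRCm38.p6, 5′ to 3′ on the gene's strand, and 8 of the 10 members had such a window. Sox2 lies at chr3:34649745-34649994 on the plus strand, Sox12 at chr2:152398047-152398296 on the minus strand, Sox15 at chr11:69654787-69655036 on the plus strand and Sox21 at chr14:118237031-118237280 on the minus strand. Capitals mark octamer letters.
Sox2: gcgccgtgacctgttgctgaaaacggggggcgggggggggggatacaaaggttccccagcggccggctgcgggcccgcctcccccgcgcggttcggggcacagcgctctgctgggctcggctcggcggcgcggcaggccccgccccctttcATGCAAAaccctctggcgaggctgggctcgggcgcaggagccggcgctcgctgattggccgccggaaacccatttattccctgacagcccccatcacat
Sox12: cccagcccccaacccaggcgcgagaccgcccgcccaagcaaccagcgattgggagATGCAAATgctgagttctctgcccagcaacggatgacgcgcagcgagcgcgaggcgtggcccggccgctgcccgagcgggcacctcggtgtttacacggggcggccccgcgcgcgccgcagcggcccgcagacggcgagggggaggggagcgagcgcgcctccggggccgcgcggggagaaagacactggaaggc
Sox15: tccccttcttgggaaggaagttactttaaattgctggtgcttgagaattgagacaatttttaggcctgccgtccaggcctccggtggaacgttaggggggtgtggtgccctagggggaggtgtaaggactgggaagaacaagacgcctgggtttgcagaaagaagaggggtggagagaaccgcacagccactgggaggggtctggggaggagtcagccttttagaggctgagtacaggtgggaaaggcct
Sox21: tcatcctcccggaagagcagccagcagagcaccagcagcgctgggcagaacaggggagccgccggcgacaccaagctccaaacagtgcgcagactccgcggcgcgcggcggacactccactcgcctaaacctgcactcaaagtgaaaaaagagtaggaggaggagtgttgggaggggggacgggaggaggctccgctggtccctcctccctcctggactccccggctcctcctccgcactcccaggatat
The 7 letters ATGCAAA began 99 bases before the Sox2 start, and the 8 letters ATGCAAAT, which contain those 7, began 195 bases before the Sox12 start. On either strand, ATGCAAA was present in 4.12% of 32851 RefSeq windows of this length and ATGCAAAT in 1.6%. The Sox letters CATTGT, found in 10.7% of all windows, were in 0 of the 8 member windows, as was the composite Sox and octamer motif (the Sox letters, any base, then the 7 octamer letters), found in 0.00609%. These matches describe letters only, and binding was not measured.

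Sox2 was detected on all 11 arrays by its first probe, ILMN_2656102, and its level separated the epiblast stem cell groups. The log2 signal was 8.97 and 8.86 in ESC, 7.61 and 7.38 in EpiSC, 8.38 and 8.48 in Epi-Sox2, 8.85 and 8.90 in EpiSC-GFP-, 9.31 and 9.23 in EpiSC-GFP+, and 8.58 in T9-EpiSC. GOF18 EpiSC were lowest, and their 2 arrays lay below all others. Sox2 was 2.67-fold lower in EpiSC than in ESC, a log2 difference of -1.42 ± 0.13 (SE, n = 2 arrays a group) with an adjusted p of 7.39e-06 in limma with Benjamini-Hochberg adjustment, as for all adjusted p-values below. In the cells labelled as overexpressing it, Sox2 was 1.91-fold higher than in EpiSC (0.94 ± 0.13, adjusted p = 0.00176). Both differences passed under all 19 alternative settings.

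The overexpressing cells did not reach the Sox2 level of ESC on this probe. Epi-Sox2 lay 0.48 ± 0.13 below ESC (log2 difference -0.48, adjusted p = 0.00874), a call that was lost without ESC replicate 1 (adjusted p = 0.0598) or Epi-Sox2 replicate 1 (0.0559). Both E3 fractions lay above EpiSC, EpiSC-GFP- by 1.38 and EpiSC-GFP+ by 1.77, with adjusted p-values of 0.000122 and 1.25e-05. EpiSC-GFP+ also lay above Epi-Sox2, by 0.84 ± 0.13 (adjusted p = 0.00108). EpiSC-GFP- and ESC were not separated (-0.039 ± 0.13, adjusted p = 0.804).

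Within E3, sorting on the Oct4 reporter gave a Sox2 difference near the threshold. EpiSC-GFP+ minus EpiSC-GFP- was 0.39 ± 0.13 on the first probe, and although the groups did not overlap, the adjusted p was 0.0534. It passed in 7 of 19 alternative settings, with adjusted p-values from 0.00655 to 0.198 over all of them. EpiSC-GFP+ minus ESC was 0.35 ± 0.13 (adjusted p = 0.0342), but this was 0.017 with cyclic loess normalisation (adjusted p = 0.916) and did not pass without ESC replicate 1 (0.065), ESC replicate 2 (0.157), EpiSC-GFP+ replicate 1 (0.137) or EpiSC-GFP+ replicate 2 (0.0738).

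The second Sox2 probe, ILMN_1248711, showed another pattern. Its log2 signal was 9.85 on both ESC arrays, 4.40 and 4.54 in EpiSC, 5.01 and 5.07 in Epi-Sox2, 4.51 and 4.24 in EpiSC-GFP-, 4.83 and 4.91 in EpiSC-GFP+, and 5.41 in T9-EpiSC. It was detected on 5 arrays, those of ESC, Epi-Sox2 and T9-EpiSC, and ESC stood far above the rest. Signal was at least 31.4-fold lower in EpiSC than in ESC (log2 difference -5.38 ± 0.14, adjusted p = 3.19e-09), where 2.67-fold was measured by the first probe. The log2 difference was -3.22 with no background correction, -4.09 with an offset of 50 and -7.53 with the authors' values, and passed in each. An at-least fold is set against the lowest detected signal on the arrays where a probe was not detected, under the main background correction.

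Both Sox2 probes were higher in Epi-Sox2 than in EpiSC, but for the second probe the bound was only 1.12-fold (0.57 ± 0.14, adjusted p = 0.0185). That call was lost with an offset of 50 (adjusted p = 0.0646), with no background correction (0.148), and without EpiSC replicate 1 (0.0646), Epi-Sox2 replicate 1 (0.0819) or Epi-Sox2 replicate 2 (0.0923). EpiSC-GFP+ also passed against EpiSC-GFP- on this probe (0.50 ± 0.14, adjusted p = 0.0251), although it was not detected on any of those 4 arrays, so no fold is given. The call was lost in 8 of 18 alternative settings: an offset of 50 (adjusted p = 0.108), no background correction (0.111), cyclic loess (a difference of 0.070, adjusted p = 0.786), and without ESC replicate 1 (0.051), ESC replicate 2 (0.0505), EpiSC-GFP- replicate 2 (0.137), EpiSC-GFP+ replicate 1 (0.0725) or EpiSC-GFP+ replicate 2 (0.112). Over the 11 arrays the signals of the 2 probes had a Pearson r of 0.29, a description of arrays that share groups. The tables give no positions for the probes, so which part of the Sox2 transcript each one reads, and whether either reads the introduced Sox2, was not tested.

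**Figure D1:**
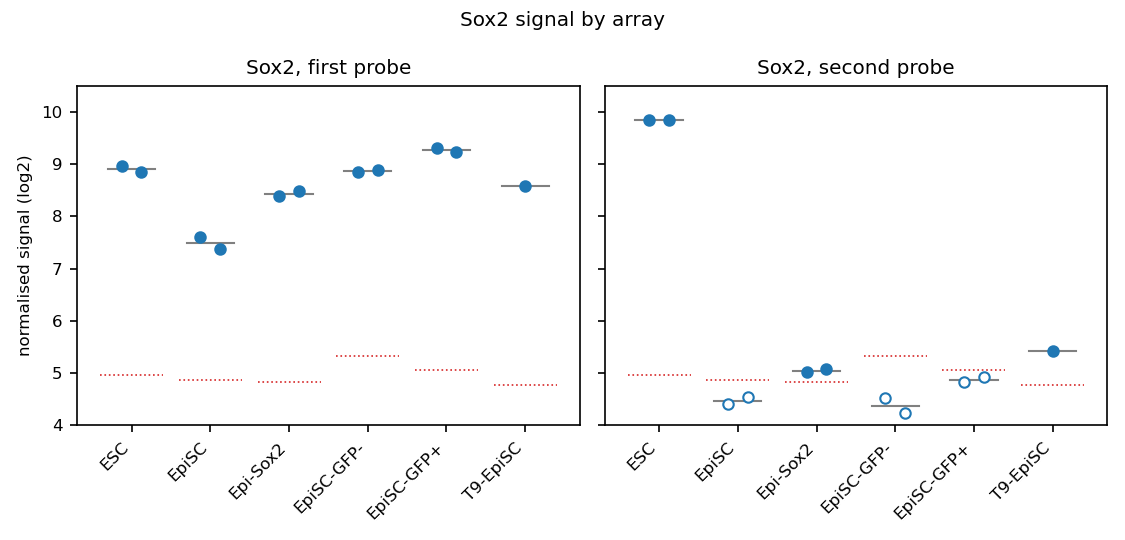
Log2 normalised signal of the first (left) and second (right) Sox2 probe on each of the 11 arrays, by group; grey lines are group means, open circles are arrays where the probe was not detected, and red dotted lines are the mean lowest detected signal of each group. The first probe is lowest in EpiSC (7.61 and 7.38), while the second is at 9.85 in ESC and at 5.41 or lower in every epiblast stem cell array.

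Sox15 had the largest difference of the 10 Sox probes between the sorted E3 fractions. Its log2 signal was 6.28 and 6.33 in ESC, 4.82 and 4.45 in EpiSC, 4.88 and 5.45 in Epi-Sox2, 4.60 and 4.47 in EpiSC-GFP-, 6.62 and 6.15 in EpiSC-GFP+, and 4.38 in T9-EpiSC. It was not detected on EpiSC replicate 2, on either EpiSC-GFP- array or on T9-EpiSC. Sox15 was at least 2.09-fold higher in EpiSC-GFP+ than in EpiSC-GFP- (1.85 ± 0.22, adjusted p = 0.00053) and lower in EpiSC, where 1 of 2 arrays detected it, than in ESC (-1.67 ± 0.22, adjusted p = 8.76e-05). Both calls held in all 19 alternative settings, but the sizes depended on the background step: the first difference ran from 0.66 with no background correction to 3.46 with the authors' values, and the second from -0.59 to -3.14 under the same 2 settings.

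ESC and EpiSC-GFP+ were the groups with high Sox15, and they were not separated from each other (0.08 ± 0.22, adjusted p = 0.756). With Sox2 overexpression, both arrays lay above both EpiSC arrays, but the difference of 0.53 ± 0.22 missed the threshold (adjusted p = 0.126, and from 0.0816 to 0.559 in the alternatives). Epi-Sox2 remained 2.2-fold below ESC (-1.14 ± 0.22, adjusted p = 0.00118) and 2.33-fold below EpiSC-GFP+ (adjusted p = 0.00222). The naive marker list also had its highest summed linear signal in ESC (5797 and 6115) and EpiSC-GFP+ (4617 and 4759). The sum was 1859 to 2043 in Epi-Sox2, 465.1 and 504 in EpiSC-GFP- and 260.9 and 311.6 in EpiSC. Its brightest gene in ESC was Esrrb (11.83 and 12.00), and the members differed. Nr0b1 was not detected in EpiSC-GFP+, and Tbx3 was lower there than in ESC (-2.69 ± 0.13, adjusted p = 9.71e-08). In Epi-Sox2 against EpiSC 5 of the 6 passed upward (8.96% of all probes), where Sox15 missed the threshold. The part of other changed genes in the Sox15 difference was not tested.

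Sox21 followed the same split of E3, with T9-EpiSC far above everything else. The probe ILMN_1254295 had a log2 signal of 5.96 and 6.14 in ESC, 5.33 and 5.54 in EpiSC, 5.24 and 5.39 in Epi-Sox2, 5.52 and 5.14 in EpiSC-GFP- (the second not detected), 6.50 and 6.69 in EpiSC-GFP+, and 9.76 in T9-EpiSC. Sox21 was 2.41-fold higher in EpiSC-GFP+ than in EpiSC-GFP- (1.27 ± 0.16, adjusted p = 0.000838). The call held in all 19 alternative settings, with a difference from 0.53 with no background correction to 1.95 with the authors' values. It was 1.53-fold lower in EpiSC than in ESC (-0.62 ± 0.16, adjusted p = 0.00776), a call lost without ESC replicate 2 (adjusted p = 0.0617) or EpiSC replicate 1 (0.0506).

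Sox21 was not separated between Epi-Sox2 and EpiSC (-0.12 ± 0.16, adjusted p = 0.672), while Epi-Sox2 lay below ESC (-0.74 ± 0.16, adjusted p = 0.00293). EpiSC-GFP+ exceeded ESC by 0.55 ± 0.16 (adjusted p = 0.0136). That call was lost with cyclic loess (0.27, adjusted p = 0.129), with the authors' values (0.0511), without ESC replicate 1 (0.0895) and without EpiSC-GFP+ replicate 2 (0.0876). Of the other Sox21 probes, ILMN_3163306 was detected on T9-EpiSC alone, at 6.47 against 4.32 to 4.82 elsewhere, and ILMN_2721489 was not detected on any array.

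The first Sox17 probe was detected in EpiSC and T9-EpiSC alone, and in EpiSC it stood close to the lowest detected signals of those arrays (4.81 and 4.94). The probe ILMN_2747986 had a log2 signal of 4.29 and 4.45 in ESC, 4.99 and 5.25 in EpiSC, 4.33 and 4.27 in Epi-Sox2, 4.74 and 4.64 in EpiSC-GFP-, 4.35 and 4.29 in EpiSC-GFP+, and 5.85 in T9-EpiSC. The 3 arrays of EpiSC and T9-EpiSC were the detected ones. Sox17 was at least 1.11-fold higher in EpiSC than in ESC (0.75 ± 0.14, adjusted p = 0.000783) and at least 1.22-fold lower in Epi-Sox2 than in EpiSC (-0.82 ± 0.14, adjusted p = 0.00416). It was thus the member that passed downward with Sox2 overexpression, and both calls held in all 19 settings. The probe met the detection filter through EpiSC and T9-EpiSC alone, so the filter favoured both directions and the calls are descriptions. The authors' values gave larger differences, 1.94 and -2.19, and no background correction smaller ones, 0.23 and -0.26.

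The second Sox17 probe, ILMN_2784446, was detected on EpiSC replicate 1 (4.87) and T9-EpiSC (5.66) and ranged from 4.20 to 4.45 elsewhere. It differed by 0.37 ± 0.15 between EpiSC and ESC (adjusted p = 0.0554) and by -0.42 ± 0.15 between Epi-Sox2 and EpiSC (0.0943), and neither passed. Of 8 endoderm markers (Foxa2, Gata4, Gata6, Cer1, Foxa1, Hnf4a, Afp, Ttr), 1 was detected in ESC and Epi-Sox2 (Gata6), 2 on each EpiSC array (Gata6 with Cer1 on replicate 1 and with Foxa2 on replicate 2), at most 1 in either E3 fraction and 4 in T9-EpiSC. Their summed linear signal was 203.8 on both ESC arrays, 223.3 and 242.9 in EpiSC, 199.5 and 201.3 in Epi-Sox2, 174.1 to 209.8 in E3 and 451.9 in T9-EpiSC. Of the 3 that were tested, Gata6 did not pass in EpiSC against ESC (adjusted p = 0.346) or in Epi-Sox2 against EpiSC (0.57), and Foxa2 and Cer1 are given with the endoderm list. Gata4, Afp and Ttr were not detected on any array, and the part of these cells in the Sox17 signal was not tested.

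By its first probe Sox12 was detected on all 9 epiblast stem cell arrays and on neither ESC array. ESC replicate 2 missed the cutoff of 0.01 narrowly, with a detection p-value of 0.010025. The probe ILMN_3026635 read 4.71 and 4.99 (not detected) in ESC, 5.17 and 5.65 in EpiSC, 5.06 and 5.43 in Epi-Sox2, 6.16 and 5.52 in EpiSC-GFP-, 5.70 and 5.55 in EpiSC-GFP+, and 5.69 in T9-EpiSC. Against ESC, it was at least 1.83-fold higher in EpiSC-GFP- (0.99 ± 0.24, adjusted p = 0.00377, in all 19 settings at 0.33 to 1.89) and at least 1.58-fold higher in EpiSC-GFP+ (0.78 ± 0.24, adjusted p = 0.0146, lost without ESC replicate 1 at 0.101 or EpiSC-GFP+ replicate 1 at 0.0683). GOF18 EpiSC, at 0.56 ± 0.24 over ESC, missed the threshold (adjusted p = 0.0612), as did Epi-Sox2 (0.39 ± 0.24, adjusted p = 0.174). No pair of epiblast stem cell groups with 2 arrays passed for this probe. The other Sox12 probe, ILMN_3099470, was detected on Epi-Sox2 replicate 1 (4.92) and EpiSC-GFP- replicate 1 (5.58). On this probe EpiSC-GFP- was higher than EpiSC (0.65 ± 0.21, adjusted p = 0.0391, at least 1.32-fold) and than ESC (0.72 ± 0.21, adjusted p = 0.0116, at least 1.24-fold), with 1 of the 2 EpiSC-GFP- arrays detected.

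Sox13 was detected on all 11 arrays, between 5.48 and 6.56. Its log2 signal was 6.31 and 6.28 in ESC, 5.62 and 5.82 in EpiSC, 6.29 and 6.11 in Epi-Sox2, 6.15 and 6.25 in EpiSC-GFP-, 6.22 and 5.48 in EpiSC-GFP+, and 6.56 in T9-EpiSC. It was 1.49-fold lower in EpiSC than in ESC (-0.58 ± 0.21, adjusted p = 0.0345), a call lost with the authors' values (0.0663), with no detection filter (0.0634) and without ESC replicate 1 (0.113), ESC replicate 2 (0.0997), EpiSC replicate 1 (0.159) or EpiSC replicate 2 (0.0625). The other 9 pairwise comparisons of Sox13 did not pass.

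Sox4 was detected on 3 arrays, Epi-Sox2 replicate 2 (4.89), EpiSC-GFP+ replicate 2 (5.10) and T9-EpiSC (4.95), and ranged from 4.34 to 4.88 on the others. None of its 10 pairwise comparisons passed. Its SoxC target Tead2, a DNA-binding effector of the Hippo pathway, passed upward in EpiSC against ESC (1.73 ± 0.13, adjusted p = 1.78e-06) and downward in Epi-Sox2 against EpiSC (-0.60 ± 0.13, adjusted p = 0.0133).

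Sox1 and Sox3, the SoxB1 factors other than Sox2, did not pass the detection filter. Sox1 ranged from 4.25 to 4.87 and was detected on 0 of 11 arrays, and Sox3 was detected on 1, EpiSC replicate 1, at 5.06. Of the neural precursor markers, Pax6, Neurog2, Olig2 and Pax3 were not detected on any array. Hes5 was detected on EpiSC-GFP+ replicate 2 by its brightest probe and on T9-EpiSC by its other probe. Nes, an intermediate filament gene and known SoxB1 target, was detected on all 11 arrays by its brightest probe, used below. The differences of its other probe, detected on T9-EpiSC and 8 of the 10 other arrays, are not given here. Nes was higher in EpiSC than in ESC (2.37 ± 0.16, adjusted p = 7.26e-07), lower in Epi-Sox2 than in EpiSC (-0.74 ± 0.16, adjusted p = 0.0118) and lower in EpiSC-GFP+ than in EpiSC-GFP- (-0.68 ± 0.16, adjusted p = 0.0128). In those 3 comparisons the first Sox2 probe differed by -1.42, 0.94 and 0.39, opposite in sign to Nes, although the last Sox2 difference did not pass (adjusted p = 0.0534). Of the 6 genes in the SoxB1 neural list, Nes and Notch1 were tested, and Notch1, a receptor gene, was lower in EpiSC than in ESC (-1.64 ± 0.31, adjusted p = 0.00104), the sign of Sox2. It missed the threshold with Sox2 overexpression (adjusted p = 0.964) and between the sorted fractions (0.816).

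**Figure D2:**
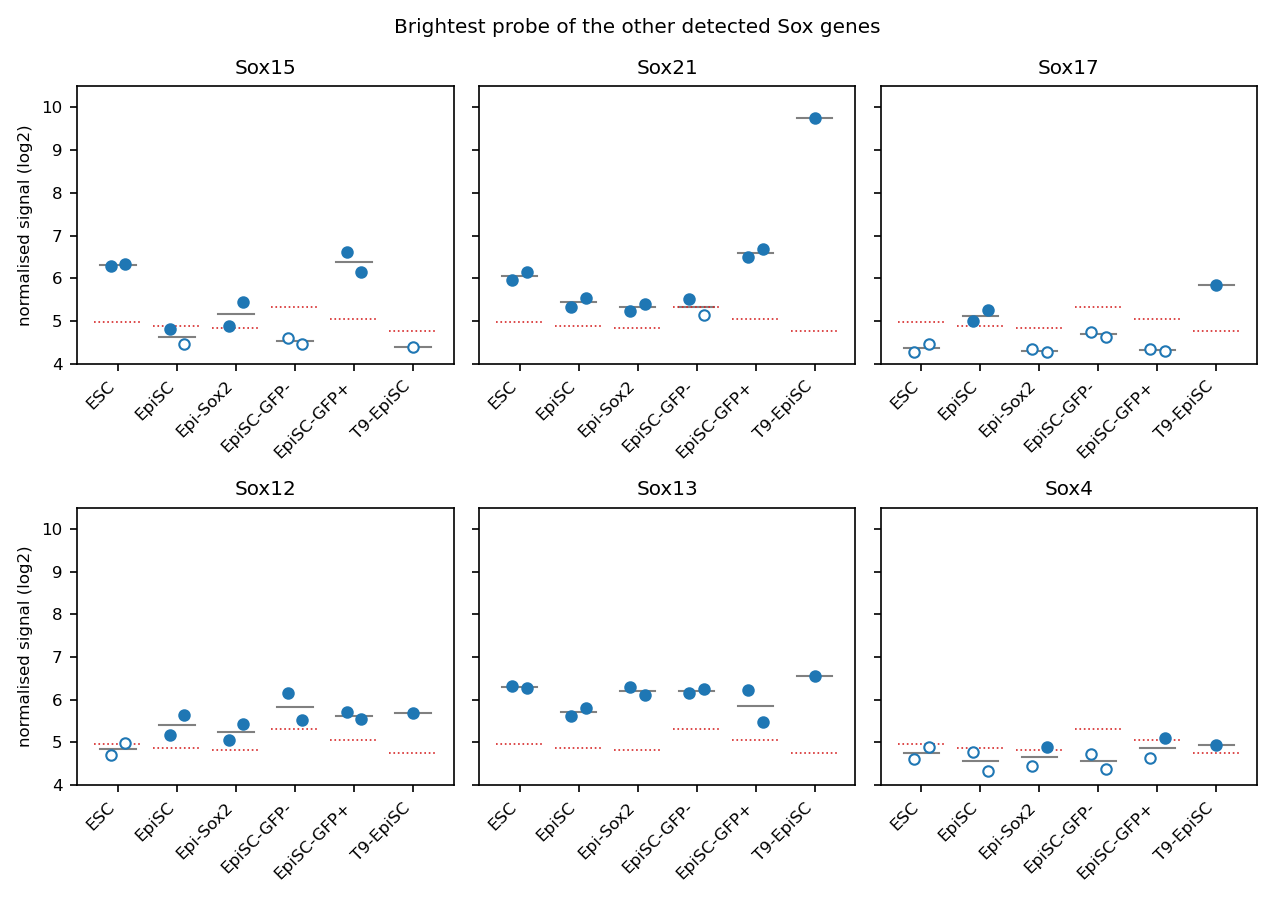
Log2 normalised signal of the brightest probe of Sox15, Sox21, Sox17, Sox12, Sox13 and Sox4 on each of the 11 arrays, by group; grey lines are group means, open circles are arrays without detection and red dotted lines are the mean lowest detected signal of each group. Sox15 and Sox21 are higher in EpiSC-GFP+ than in EpiSC-GFP-, and Sox21 is at 9.76 on T9-EpiSC.

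Counted over the 10 detected probes, 6 passed in EpiSC against ESC, 1 higher (Sox17) and 5 lower (both Sox2 probes, Sox13, Sox15 and Sox21), where 65.2% of all 13048 tested probes passed, 37.3% higher and 27.9% lower. The median difference was -0.38 over the Sox probes and 0.15 over all probes. Fibroblast markers differed in the same comparison: of 5 tested, 4 were lower in EpiSC and 0 higher. Lox and Col3a1 were detected in ESC alone, so the filter favoured a lower value in EpiSC for them. The summed linear signal of the 8, taken without the filter, was 1930 and 1997 in ESC and 451.3 and 478.3 in EpiSC. In Epi-Sox2 against EpiSC 1 of the 5 was higher, Acta2 (2.47 ± 0.14, adjusted p = 5.27e-06). The sums in Epi-Sox2 were 1462 and 1631, and Acta2 at 10.40 and 10.25 was the brightest gene in them. Lox, Col3a1, Col1a2 and Postn were not detected on either Epi-Sox2 array, and Thy1 did not pass (0.15 ± 0.15, adjusted p = 0.543). The part of fibroblasts in the Sox differences was not tested. In Epi-Sox2 against EpiSC 3 passed, both Sox2 probes higher and Sox17 lower, where 17.2% of all probes passed, 8.96% higher and 8.28% lower, and the medians were 0.17 and -0.023. In EpiSC-GFP+ against EpiSC-GFP- 3 passed, all higher: Sox15, Sox21 and the second Sox2 probe, which was not detected in either fraction. Of all probes 24.4% passed there, 12.2% in each direction, and the medians were 0.19 and -0.013. A probe that entered through the one group where it was high had to differ, so these counts are descriptions. The first 2 comparisons share the EpiSC arrays.

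In the 7 other pairwise comparisons, which share these groups, the number of Sox probes that passed was 4 of 10 in Epi-Sox2 against ESC (64% of all probes), 4 in EpiSC-GFP+ against ESC (68.3%) and 5 in EpiSC-GFP- against ESC (71.5%). It was 5 in EpiSC-GFP+ against EpiSC (37.2%), 4 in EpiSC-GFP- against EpiSC (34%), 3 in EpiSC-GFP+ against Epi-Sox2 (38.3%) and 4 in EpiSC-GFP- against Epi-Sox2 (40.6%). Against ESC the Sox shares were below those of all probes, and the difference of these shares was not tested.

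Cyclic loess moved the median of all probes in EpiSC against ESC from 0.15 to -0.038 and the share of passing probes that were higher from 57.2% to 46.4%. Of the Sox probes, 3 then passed higher and 5 lower, with the first Sox12 probe and the second Sox17 probe added to Sox17. With the authors' values the Sox split was 2 higher and 4 lower in that comparison and 3 higher and 1 lower in EpiSC-GFP+ against EpiSC-GFP-.

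**Figure D3:**
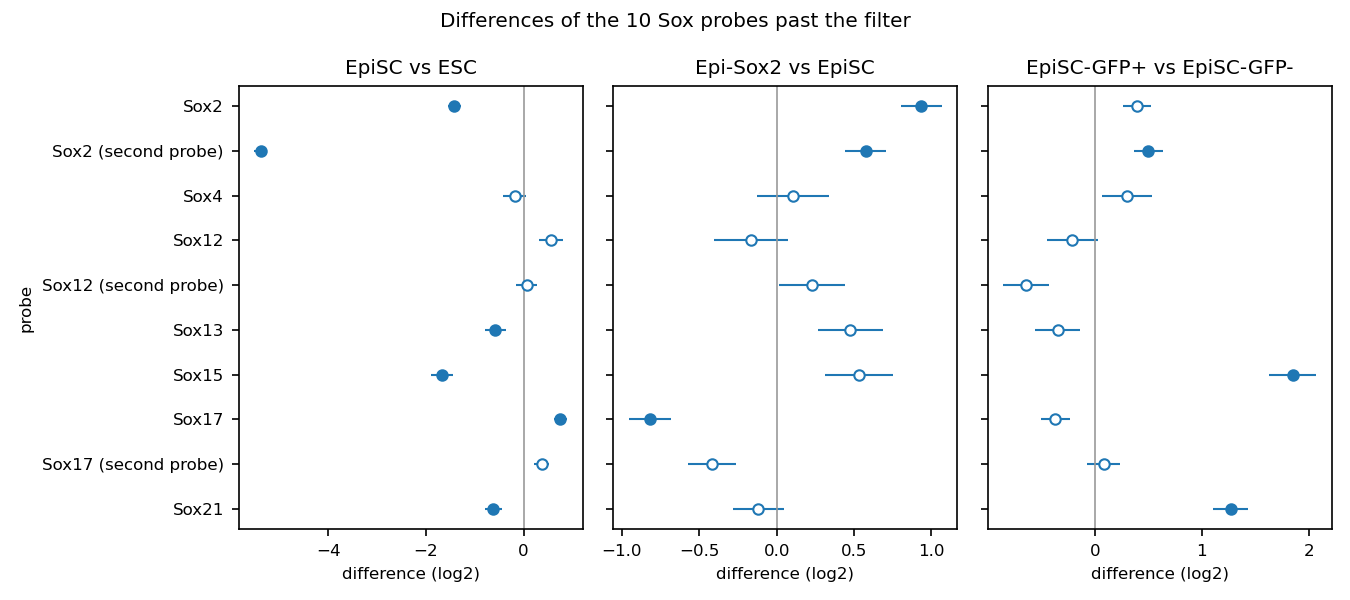
Log2 differences (circles) with standard errors (bars) of the 10 detected Sox probes in EpiSC against ESC, Epi-Sox2 against EpiSC and EpiSC-GFP+ against EpiSC-GFP-; filled circles passed at an adjusted p under 0.05, and each panel has its own axis range. The second Sox2 probe stands at -5.38 in the first panel, Sox17 at -0.82 in the second and Sox15 at 1.85 in the third.

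T9-EpiSC had the highest signal of all arrays for 5 of the 14 member probes, given here as values of 1 array with no test. The array also had the most detected probes (11675) and the lowest floor (4.77). The share of all probes that were highest there is not given, so the count cannot be read as a trait of the Sox genes. Sox21 exceeded the highest other array by 3.07 on ILMN_1254295 and by 1.66 on ILMN_3163306, Sox17 by 0.60 and 0.79 on its 2 probes, and Sox13 by 0.25. Sox15 at 4.38 was not detected there and lay below the lowest other array (4.45), while Sox2 at 8.58 was within the range of the others. Some endoderm genes were high on the same array. Foxa2, a forkhead factor of definitive endoderm, read 6.72 on ILMN_1246216 against at most 4.98 elsewhere. Cer1, a secreted Nodal and BMP antagonist, read 6.37 against at most 5.26. Cxcr4, a chemokine receptor of definitive endoderm, read 6.29 against at most 4.95. Foxa1, Gata6 and Pdgfra also lay above all other arrays. Others did not: the other Foxa2 probe (4.22), Gata4, Hnf4a, Afp, Ttr and Lamb1 were not detected on T9-EpiSC. Lama1 at 5.57 and Col4a1 at 8.38 lay within the range of the other arrays. Of 8 fibroblast markers 3 were detected on T9-EpiSC (Acta2, Thy1 and Col1a1), against 5 in ESC, 2 to 4 in Epi-Sox2 and 2 elsewhere. Their summed linear signal was 2044 on T9-EpiSC, where Acta2, also a smooth muscle gene, read 10.84, while Thy1 at 5.98 lay below all other arrays (6.61 at the lowest). Col1a2 and Postn were not detected on any array, and the part of these cells in the T9-EpiSC values was not tested.

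Among 7 Sox genes outside the 10, 14 probes were on the array and 2 passed the filter, of Sox5 and of Sox7. Sox7, a SoxF relative of Sox17 known from extraembryonic endoderm, was detected on ESC replicate 1 and Epi-Sox2 replicate 1 and was at least 1.07-fold lower in EpiSC than in ESC (-0.66 ± 0.17, adjusted p = 0.00704). Sox8, Sox9 and Sox18 were detected on T9-EpiSC alone, at 4.90, 5.26 and 4.87.

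Oct4 binds DNA together with Sox2, and the order of the groups differed between the genes. The brightest Pou5f1 probe, ILMN_1217100, had a log2 signal of 11.43 and 11.50 in ESC, 12.48 and 12.59 in EpiSC, 12.11 and 12.35 in Epi-Sox2, 13.39 and 13.37 in EpiSC-GFP-, 13.02 and 12.97 in EpiSC-GFP+, and 11.75 in T9-EpiSC. On this probe it was higher in EpiSC than in ESC (1.07 ± 0.13, adjusted p = 5.22e-05), and Pou3f1, a POU factor of the primed epiblast and neural lineage, was higher by 3.52 ± 0.16 (adjusted p = 7.67e-08). Neither passed with Sox2 overexpression (Pou5f1 -0.30, adjusted p = 0.141, and Pou3f1 -0.40, adjusted p = 0.106). In the fractions sorted for the Oct4 reporter, Pou5f1 was at -0.38 ± 0.13 in EpiSC-GFP+ minus EpiSC-GFP- (adjusted p = 0.0576), which did not pass. The other Pou5f1 probe, ILMN_1252910, disagreed with the first for EpiSC against ESC (-0.040 ± 0.14, adjusted p = 0.82) and passed in neither of the other two comparisons (-0.14 and 0.025).

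Of 8 genes listed as targets of Sox2 with Oct4, 7 had a tested probe. In EpiSC against ESC 3 were higher and 3 lower, where 37.3% of all probes passed higher and 27.9% lower. The median was 0.20 against 0.15 over all probes. Those higher were Lefty1, Pou5f1 on its brightest probe but not on its other one, and Zscan10 at an adjusted p of 0.0499. Fbxo15, an F-box gene of embryonic stem cells, was lower (-4.42 ± 0.16, adjusted p = 2.78e-08), as were Nanog, a core pluripotency factor (-3.02 ± 0.19, adjusted p = 5.17e-07), and Fgf4, a growth factor gene with a Sox2 and Oct4 enhancer (-2.05 ± 0.14, adjusted p = 8.18e-07). Lefty1, a Nodal antagonist, was higher by 2.24 ± 0.14 (adjusted p = 4.48e-07).

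With Sox2 overexpression 2 of the 7 were higher and 0 lower, where 8.96% of all probes passed higher and 8.28% lower. The median was 0.24 against -0.023 over all probes. Fgf4 read 5.94 and 5.71 in EpiSC and 7.58 and 7.75 in Epi-Sox2 (1.84 ± 0.14, adjusted p = 4e-05), and Fbxo15 read 6.97 and 6.88 in EpiSC and 8.58 and 8.89 in Epi-Sox2 (1.81 ± 0.16, adjusted p = 0.000124). In neither gene did the groups overlap. Nanog was not separated (-0.10 ± 0.19, adjusted p = 0.762), nor was Utf1, a chromatin protein gene with a Sox2 and Oct4 enhancer (0.24 ± 0.13, adjusted p = 0.246).

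Between the sorted fractions 3 of the 7 were higher in EpiSC-GFP+ and 1 lower, where 12.2% of all probes passed in each direction. The median was 0.64 against -0.013 over all probes. Fbxo15 was higher by 3.16 ± 0.16 (adjusted p = 1.34e-06), Nanog by 1.26 ± 0.19 (0.0018) and Fgf4 by 0.88 ± 0.14 (0.00217), and Lefty1 was lower (-0.90 ± 0.14, adjusted p = 0.00181). Fbxo15 and Fgf4 were thus higher in both comparisons, and Nanog passed in the sorted fractions. On T9-EpiSC, where Sox2 was 8.58, Fgf4 was not detected (4.36), and Utf1 at 8.19 and Zscan10 at 7.79 were below all other arrays (10.19 and 8.70 at the lowest).

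**Figure D4:**
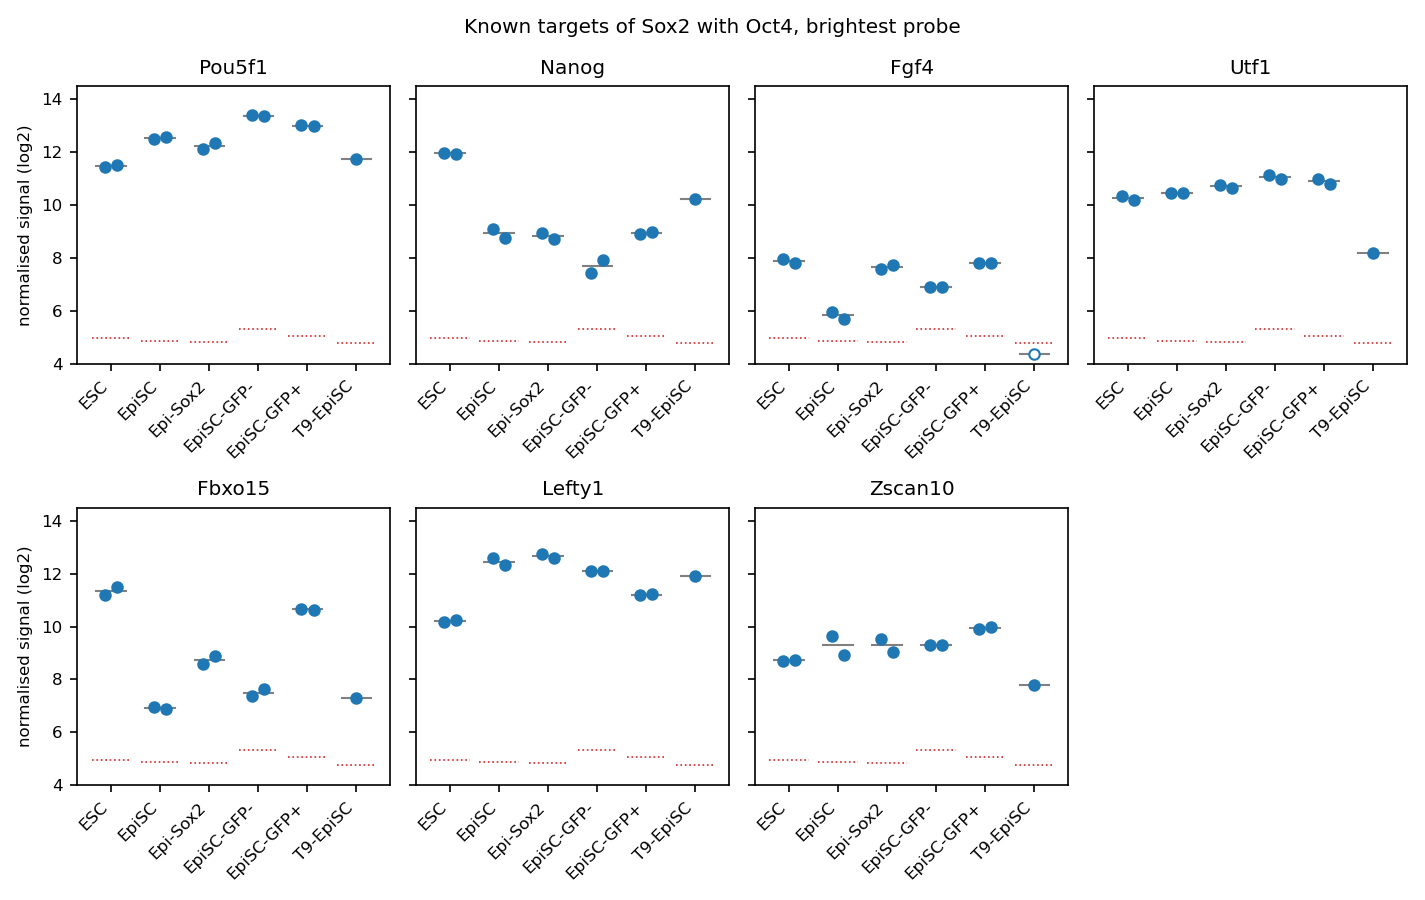
Log2 normalised signal of the brightest probe of 7 genes known as targets of Sox2 with Oct4 on each of the 11 arrays, by group; grey lines are group means, open circles are arrays without detection and red dotted lines are the mean lowest detected signal of each group. Fgf4 and Fbxo15 are higher in Epi-Sox2 than in EpiSC and higher in EpiSC-GFP+ than in EpiSC-GFP-, and Fgf4 is not detected on T9-EpiSC.

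Of 11 genes listed with Sox17 in endoderm, 8 had a tested probe. In EpiSC against ESC 3 were higher and 3 lower (median 0.086, against 0.15 over all probes), where 37.3% of all probes passed higher and 27.9% lower. Cer1 was higher by 0.66 ± 0.18 (adjusted p = 0.00757, at least 1.04-fold) and Foxa2 by 0.56 ± 0.22 (adjusted p = 0.0424), both near the detection floor, and Col4a1, a basement membrane collagen, by 2.17 ± 0.20 (adjusted p = 8.25e-06). Cer1 and Foxa2 each met the detection filter through 1 EpiSC array and T9-EpiSC alone. The filter thus favoured their higher values in EpiSC, also for Cer1 against Epi-Sox2 below. The laminin genes Lama1 (-1.78 ± 0.12, adjusted p = 8.13e-07) and Lamb1 (-2.51 ± 0.20, adjusted p = 2.27e-06) were lower. In Epi-Sox2 against EpiSC 1 was lower, Cer1 (-0.75 ± 0.18, adjusted p = 0.0183), and 1 higher, Lama1 (0.90 ± 0.12, adjusted p = 0.00119). Of all probes 8.28% passed lower and 8.96% higher there. Between the sorted fractions Lama1 was higher in EpiSC-GFP+ (0.64 ± 0.12, adjusted p = 0.00475) and the other 7 did not pass, where 12.2% of all probes passed in each direction.

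The named genes whose log2 signal was most like that of each member were ranked by Pearson r over the 11 arrays among 8736 genes, as a description of arrays that share groups. For Sox2 they were Gadd45g (0.95), Mrpl14 (0.95) and Cd63 (0.92), for Sox15 Cobl (0.98), Phf11d (0.97) and Khdc3 (0.97), and for Sox17 Sdc2 (0.95), Lhx1 (0.95) and Poglut2 (0.94). For Sox21 they were Col26a1 (0.97), Col2a1 (0.95) and Anp32e (0.95). The likeness to Sox21 leaned on T9-EpiSC, since over the other 10 arrays r was 0.80, 0.67 and 0.67. Between probes of different members, r ran from -0.69 (the second Sox2 probe with Sox12 on ILMN_3026635) to 0.80 (Sox17 on ILMN_2784446 with Sox21). The value of 0.80 also leaned on T9-EpiSC, the highest array for both probes (5.66 and 9.76). This Sox17 probe was detected on only 1 of the other 10 arrays, and r without T9-EpiSC is not given. The closest genes were Unc119 (0.93) for Sox12, Zfp24 (0.87) for Sox13 and Zfp157 (0.84) for Sox4.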

How the data were processed

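Total RNA was amplified and hybridised to MouseRef-8 v2 bead arrays. The deposited table holds mean bead intensities that the authors did not normalise, and a detection p-value per probe and array, per the file headers. The submitters' processing notes name BeadStudio 3.2, lumi and RMA, without roles. The authors' deposited log2 values served as an alternative, and their background step is not given in the sources used here.

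Groups were taken from the sample titles. Intensities were corrected by normexp with the detection p-values (offset 16), quantile-normalised and taken to log2 in limma 3.58.1 (R 4.3.3). Probes detected at p under 0.01 on at least 2 arrays (13048) entered a limma fit (lmFit, eBayes) with 1 mean per group on all 11 arrays, which left 5 residual degrees of freedom plus 4.87 prior ones. P-values were adjusted by Benjamini-Hochberg within each comparison at 0.05. Errors are standard errors of the fit. The number of arrays limits the precision, and T9-EpiSC, with 1 array, was described only. Probes were kept apart, not merged to genes. Gene lists are given by their brightest tested probe. Gene names come from the platform annotation updated through Entrez numbers, with 23978 probes carrying 1 symbol, 0 several and 1719 none.

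The members and gene lists were chosen with earlier results of these data known. Named genes are every member, the lists with up to 4 of the largest differences (further list genes were named after their values were seen) and the 3 genes most like each member. Sox promoter windows are from RefSeq. The fit was tested on simulated data. Replicate numbers did not pair the arrays: 0 of 10 correlations of same-numbered deviations exceeded 0.1 (-0.02 to 0.08). Alternatives tried were no background correction or an offset of 50, cyclic loess, the authors' values, 1 probe per gene, detection on both arrays of a group or no such filter, fits without each array in turn, and a replicate block.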

Additional observations from a re-analysis of the deposited data

Results flagged for a closer look

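Signals on the single T9-EpiSC array, which entered no comparison, lay above all 10 other arrays for 5 of the 14 member probes. The share over all probes is not given, so the count cannot be read as a trait of the Sox genes. Sox21 stood at 9.76 on ILMN_1254295, where the highest other array was 6.69, and at 6.47 on ILMN_3163306, which was detected on no other array. Sox17 stood at 5.85 on ILMN_2747986 and 5.66 on ILMN_2784446, where the highest other arrays were 5.25 and 4.87. Sox13 stood at 6.56, where the highest other array was 6.31. With 1 array these values have no replicate check.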

How the results depend on the processing

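Of the 12 differences of Sox probes that passed in the 3 main comparisons, 8 kept their side of the threshold and their sign. This held in every alternative that tested the probe, 18 for the second Sox2 probe and 19 for the others. The other 4 are the Sox13 and Sox21 differences between EpiSC and ESC and the 2 upward differences of the second Sox2 probe, each given above with what ended the call. Of the 18 that did not pass, 6 kept side and sign in every alternative that tested the probe, 17 to 19 of them. The number of Sox probes that passed ran from 4 to 7 over the fits without 1 array and to 8 with cyclic loess in EpiSC against ESC, from 2 to 4 in Epi-Sox2 against EpiSC and from 2 to 5 in EpiSC-GFP+ against EpiSC-GFP-, where the count was 5 without EpiSC replicate 1 or replicate 2. In the last case the sorted arrays were unchanged and the pooled spread differed. Over the 7 other pairwise comparisons 29 differences passed, and 20 to 30 did so in the alternatives. With the replicate block the counts were 6, 3 and 3, and 25 in the 7 others, and the differences named in the 3 main comparisons kept their calls. Sox15 in EpiSC-GFP- against Epi-Sox2 passed at -0.63 (adjusted p = 0.0439) and was lost in 10 alternatives, and Sox2 in the same comparison passed at 0.44 (0.0223) and was lost in 5. Differences that did not pass and changed sign when 1 array was left out were Sox4 (-0.41 to 0.039) and the second Sox12 probe (-0.11 to 0.24) in EpiSC against ESC, Sox4 (-0.12 to 0.33) and the first Sox12 probe (-0.40 to 0.069) in Epi-Sox2 against EpiSC, and the first Sox12 probe (-0.54 to 0.11) and Sox13 (-0.72 to 0.020) in EpiSC-GFP+ against EpiSC-GFP-; the cause was not tested. Limits are 2 arrays a group, 1 line per epiblast group, signals near the floor for Sox4, Sox12 and Sox17, and a higher floor on E3 arrays. A slide block was not run because the tables used here name no slides.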
